A study of Mus musculus with 3 samples.

Results

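The Gimap genes encode the GTPases of the immunity-associated protein family, small G proteins of vertebrate lymphocytes that are anchored on intracellular membranes or held in the cytosol. The mouse genes described here lie side by side in 1 cluster. Loss of Gimap5 or Gimap1 is known to deplete mature lymphocytes, Gimap3 and Gimap5 have been tied to Bcl2 family proteins, Gimap4 to the pace of T cell death, and Gimap6 to the GABARAP proteins of autophagy. Less is known of Gimap7, Gimap8 and Gimap9. The members were taken by symbol as Gimap1, Gimap3, Gimap4, Gimap5, Gimap6, Gimap7, Gimap8 and Gimap9, which are 8 of the 27734 genes listed in all 3 runs. All 8 passed the filter on low counts and were tested.

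On GRCm38, the cluster spans chr6:48647234-48770851, or 123.618 kb, in the order Gimap8, Gimap9, Gimap4, Gimap6, Gimap7, Gimap1, Gimap5 and Gimap3. Gimap6 and Gimap3 lie on the minus strand and the others on the plus strand. The promoter windows of 5 members are shown for the results described below. Gimap1 and Gimap9 differed least and Gimap8 and Gimap4 most between Sox13+ or Il2rb+ Trdc cells and resting DN3 cells. Gimap3 was the member that differed between these 2 Trdc gates. Each window holds 250 bases before and 50 after the start of the gene in RefSeq (GRCm38.p6), written 5′ to 3′ on the strand of the gene, with the motifs searched in capitals.
Gimap1, chr6:48738797-48739096, plus strand: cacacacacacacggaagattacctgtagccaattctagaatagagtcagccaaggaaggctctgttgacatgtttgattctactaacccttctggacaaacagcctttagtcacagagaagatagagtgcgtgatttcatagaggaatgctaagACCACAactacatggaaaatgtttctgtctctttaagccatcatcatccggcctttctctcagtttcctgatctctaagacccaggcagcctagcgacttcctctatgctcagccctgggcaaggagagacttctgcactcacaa
Gimap9, chr6:48675885-48676184, plus strand: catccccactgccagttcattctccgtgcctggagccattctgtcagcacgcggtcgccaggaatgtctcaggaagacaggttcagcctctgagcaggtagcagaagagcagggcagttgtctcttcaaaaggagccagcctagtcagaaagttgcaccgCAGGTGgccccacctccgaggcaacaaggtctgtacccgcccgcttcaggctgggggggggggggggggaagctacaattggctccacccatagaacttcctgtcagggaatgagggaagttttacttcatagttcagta
Gimap3, chr6:48770802-48771101, minus strand: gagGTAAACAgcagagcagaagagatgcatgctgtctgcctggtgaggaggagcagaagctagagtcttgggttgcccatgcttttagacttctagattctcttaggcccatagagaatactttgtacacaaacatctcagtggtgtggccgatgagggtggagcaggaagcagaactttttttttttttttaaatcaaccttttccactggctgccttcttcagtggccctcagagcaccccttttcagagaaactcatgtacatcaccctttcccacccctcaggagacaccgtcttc
Gimap4, chr6:48684328-48684627, plus strand: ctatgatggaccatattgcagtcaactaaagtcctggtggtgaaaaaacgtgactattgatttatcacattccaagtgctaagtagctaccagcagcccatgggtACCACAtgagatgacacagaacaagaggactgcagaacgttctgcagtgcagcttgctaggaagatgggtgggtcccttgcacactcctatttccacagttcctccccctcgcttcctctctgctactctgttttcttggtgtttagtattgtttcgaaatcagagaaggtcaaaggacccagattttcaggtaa
Gimap8, chr6:48646984-48647283, plus strand, with no motif found: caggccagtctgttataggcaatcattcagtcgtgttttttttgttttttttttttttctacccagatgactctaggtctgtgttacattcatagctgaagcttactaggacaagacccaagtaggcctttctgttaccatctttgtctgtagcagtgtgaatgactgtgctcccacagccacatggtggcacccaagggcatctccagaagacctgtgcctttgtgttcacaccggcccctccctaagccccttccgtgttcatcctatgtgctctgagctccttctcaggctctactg
The capitals mark ACCACA, the other strand of the RUNX motif TGTGGT, at -95 from the start of Gimap1 and at -145 from that of Gimap4, the E box CAGGTG at -90 in Gimap9, and the FOXO motif GTAAACA at -247 in Gimap3. RUNX factors, E proteins and FOXO1 are known regulators of T cell genes. The RUNX motif also stood in the window of Gimap7, so that 3 of the 9 RefSeq windows of the family held it, against 16.8% of all 32851 promoters. The CAGGTG box was in 1 of 9 against 20.2%, and the FOXO motif in 1 of 9 against 3.65%. None of the 9 windows held the ETS motif CCGGAAG, the KLF motif CCACACCC, the TCF1 and LEF1 motif CTTTGAT or the E box CAGCTG, which 8.86%, 3.56%, 3.73% and 16.3% of all promoters held on either strand. The windows of Gimap5 and Gimap6 and both windows of Gimap8 held none of the motifs searched, so that members with and without a motif were found among those that differed most.

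The cells were thymocytes of C57BL/6 mice, labelled as 6 weeks of age, in 3 10x libraries of 4 pooled thymi each. The first run was sorted for total CD4-CD8- (DN) and TCRγδ+ cells, the second for DN1 and DN2 cells without TCRγδ+ cells, and the third for DN1 and DN2, DN3 and TCRγδ+ cells that were joined after sorting. All sorts left out cells with surface TCRβ, NK1.1, B220, CD11b or CD11c. Every sort was made once, with no allele, drug or time point added, so that the runs are single libraries of different sorts and the spread between them is not the spread between mice.

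Stages were read from the transcripts of each cell with fixed rules, called gates, since the files hold no cell labels. Progenitors carried Kit with Flt3 or Cd34 and no Il2ra. DN2a cells had Il2ra with Kit or Cpa3, and DN2b cells had Ptcra or Rag transcripts in addition. DN3 cells had Il2ra with Ptcra or Rag transcripts and no UMI of Kit or Cpa3, and were resting or cycling by Mki67 and Top2a. The DN4 gate used Cd8a and Cd8b1, the Trdc and Trac gates the constant genes of the TCRδ and TCRα chains, and the Trdc cells were parted into Sox13+, Il2rb+ and other. Of 23283 cells, 21879 had 500 to 5000 genes and at most 7% mitochondrial counts, and 11729 of these fell into a gate. The kept cells of the 3 runs held a median of 5989.5, 4844 and 8507 UMIs, and the 28 sums of a gate in a run with 20 or more cells entered the comparisons. The first and second runs shared 72 cell barcodes, the first and the third 1, and the second and the third 0.

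The gates were checked with markers that no gate used. The summed level of Notch3, Dntt, Notch1 and Cd3g was 4684, 5213 and 4482 CPM (counts per 1e+06 UMIs of the sum) in the resting DN3 gate of the 3 runs, against 869 to 886 in progenitors. The progenitor list (Lmo2, Hhex, Mef2c, Bcl11a, Lyl1 and Spi1) stood at 836 and 1228 CPM in the progenitor gate and at 118 to 191 in DN2a cells, but the myeloid list was also highest there, at 1130 and 1741 CPM with 0 of 5 markers missing. The NK receptor and effector list (Klrd1, Klrk1, Nkg7, Ccl5, Ctsw and Xcl1) reached 4528 and 3279 CPM in the Trac gate. It was 1120, 2145 and 1413 CPM in the Il2rb+ Trdc gate and 268, 484 and 316 in the Sox13+ Trdc gate. The Trdc gates are named by their genes alone. The erythroid list (globins and Alas2) stayed at or under 11.7 CPM in all sums. The second run held 399 resting and 254 cycling DN3 cells by these gates although it had been sorted for DN1 and DN2 cells. It also held 122 Sox13+ and 60 Il2rb+ Trdc cells although TCRγδ+ cells had been sorted out of it. The Trac gate held 1750 cells of the second and 709 of the third run although TCRβ+ cells had been left out. Only 11 Trac cells were in the first run, so that this gate rests on the later 2 libraries.

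The family was lower in the progenitor, DN2, DN3 and DN4 gates than in the Sox13+ Trdc, Il2rb+ Trdc and Trac gates. All 8 members together made 370, 383 and 379 CPM in resting DN3 cells of the first, the second and the third run, and 203, 211 and 253 in cycling ones. They made 723, 895 and 1055 CPM in Sox13+ Trdc cells, and 1411, 1044 and 1424 in Il2rb+ Trdc cells. The Trac gate reached 1594 CPM (95% exact Poisson interval 1562 to 1627) in the second and 1577 (1542 to 1613) in the third run. Each of these Sox13+, Il2rb+ and Trac sums was above every sum of the progenitor, DN2, DN3 and DN4 gates, where the highest was 455 CPM (412 to 501) in progenitors of the third run. The other Trdc gate held most of the Trdc cells of the first and the second run (388 and 444). In these runs it was closer to the progenitor to DN4 gates, at 483 (451 to 516) and 609 CPM. Its interval in the first run overlapped that of the third-run progenitors. In the third run it was at 1085 CPM, beside 1055 in the Sox13+ Trdc gate. Counts are 1 UMI per captured 3′ end, so that no gene length enters, and all intervals cover counting error only.

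Gimap1 and Gimap9 were present in every gate. Gimap1, which mature T and B cells need, ran from 61.8 CPM in DN4 cells of the first run to 291 in Trac cells of the second. It was at 177, 172 and 156 CPM in resting DN3 cells, 139, 204 and 186 in Sox13+ Trdc cells, and 291 and 241 in Trac cells. Gimap9 had the narrowest span, 49.2 to 140 CPM over all 28 sums. Its levels in resting DN3 (77.1, 66.2 and 105 CPM) lay close to those in the Trac gate (94.1 and 112). Gimap1 alone supplied 41.3% to 52.2% of the UMIs of the family in DN2a, DN2b and resting DN3 cells, and 18.2% and 15.3% in Trac cells.

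Gimap3 and Gimap4 were scarce in the gates from progenitors to DN4. Gimap4 was counted at 4.66, 22.2 and 8.22 CPM in resting DN3 cells, at 57.7, 109 and 109 in Sox13+ Trdc cells, at 336, 161 and 189 in Il2rb+ Trdc cells, and at 481 and 430 in Trac cells, where it was the most counted member. Gimap3 was at 1.55, 12.6 and 7.02 CPM in resting DN3 cells and at 239 and 243 in Trac cells. The Sox13+ Trdc gate of the first run held 0 UMIs of Gimap3 (upper limit 12.5 CPM), and those of the other runs 17.8 and 20.03 CPM, whereas the Il2rb+ Trdc gate held 78.4, 82.4 and 137. The other Trdc cells, with neither Sox13 nor Il2rb or with both, held 29.0, 61.9 and 133 CPM of Gimap4 and 8.21, 30.9 and 76.8 of Gimap3. The counting intervals of Gimap3 in the Sox13+ and Il2rb+ gates were apart in each run.

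Gimap5 and Gimap6 took an intermediate course, whereas Gimap8 was also scarce in the gates from progenitors to DN4. Gimap6 was at 73.5, 64.7 and 64.0 CPM in resting DN3 cells, at 251, 293 and 425 in Sox13+ Trdc cells, and at 280 and 328 in Trac cells, so that its Sox13+ and Trac ranges overlapped. Gimap5 was at 27.9, 34.9 and 29.1 CPM in resting DN3 cells, 115, 113 and 82.1 in Sox13+, 258, 146 and 184 in Il2rb+ Trdc cells, and 156 and 135 in the Trac gate. Gimap8 was nearly absent from resting DN3 cells, at 1.55, 4.04 and 4.61 CPM, and reached 20.4, 37.8 and 76.8 in Sox13+ Trdc cells and 41.7 and 74.7 in Trac cells. Gimap8 was thus lower in the second run than in the third in both of these gates. Gimap7 stayed at 10.2 to 15.4 CPM in the Sox13+ and Trac gates and at 11.2, 11.2 and 45.1 in the Il2rb+ gate, where the highest sum rested on 26 UMIs. The plot of levels by gate shows these courses.

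**Figure D1:**
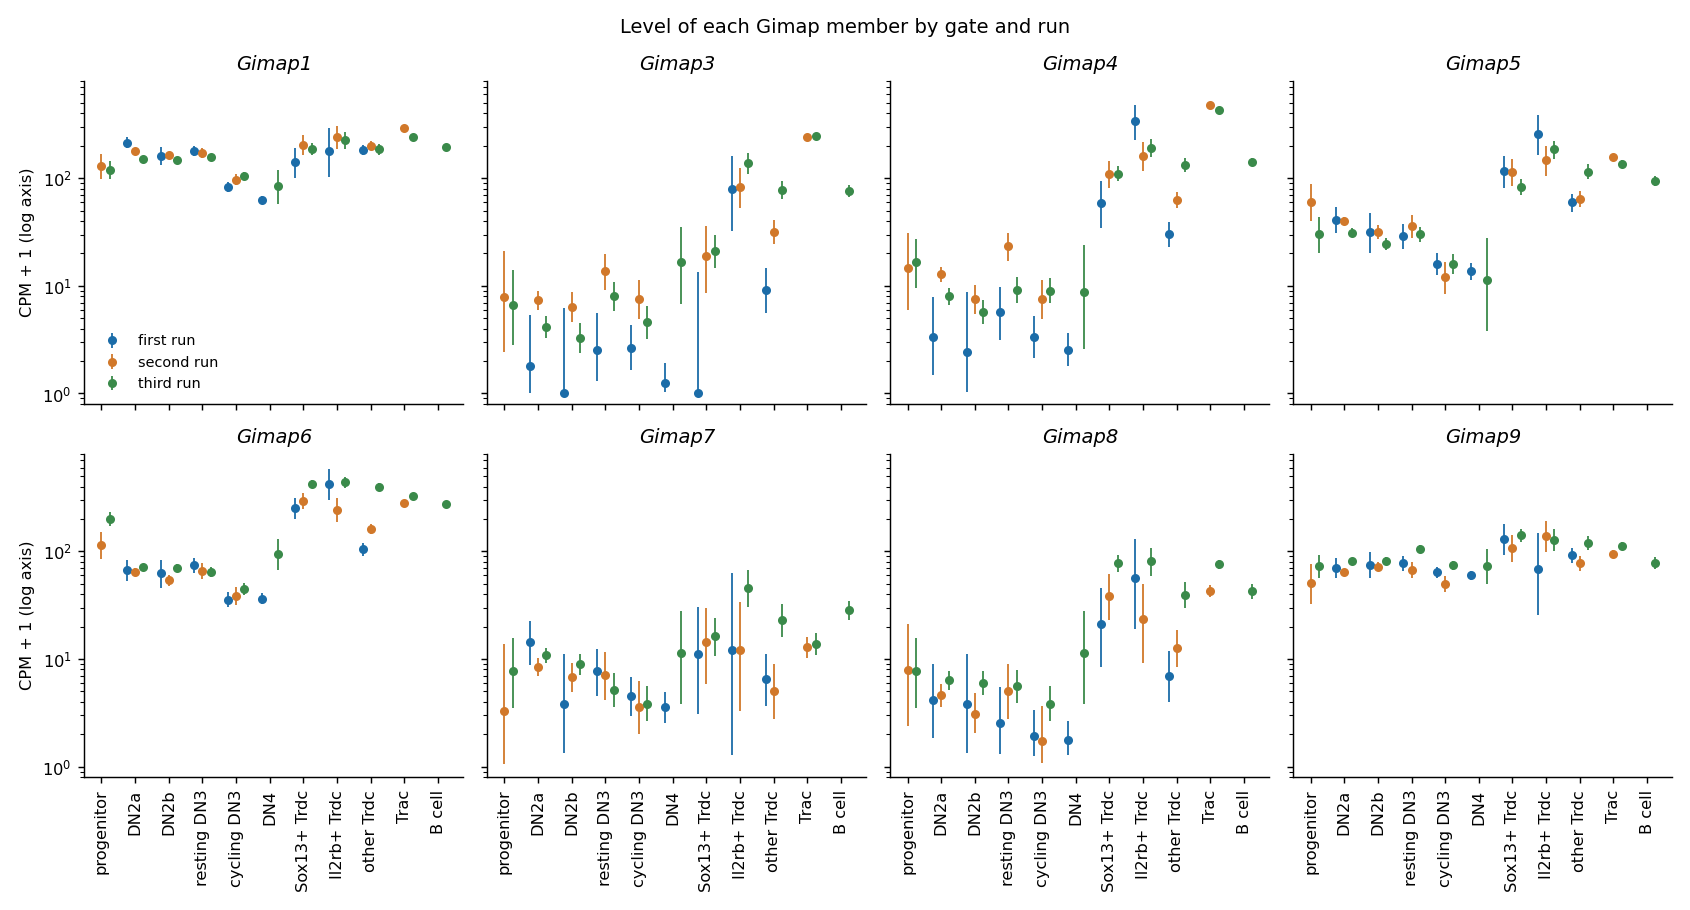
Level of each member, as CPM + 1 on a log axis, in each gate (x axis) and run (colour). Points are sums of all cells of a gate in a library, and bars are exact Poisson 95% intervals. Gimap1 and Gimap9 stay within 61.8 to 291 and 49.2 to 140 CPM. Gimap4 and Gimap8 are low in DN2 to DN4 cells and higher in the Sox13+ Trdc, Il2rb+ Trdc and Trac gates. Gimap3 is at 0 to 20.03 CPM in the Sox13+ Trdc gate and is higher in the Il2rb+ Trdc and Trac gates.

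In the B cell gate, which only the third run filled with 447 cells, all members were counted. Gimap6 (276 CPM) and Gimap1 (192 CPM) were at 84.1% and 79.6% of their level in the Trac gate of the same run. Gimap3 (74.7 CPM) and Gimap4 (141 CPM) were at 30.7% and 32.7%. Gimap7 was the exception, with 27.5 CPM in B cells (95% Poisson interval 22.1 to 33.8) and 12.9 in Trac cells (9.92 to 16.6). With 1 library in this gate, no test of these differences was made.

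The 6 comparisons that follow were fitted together with edgeR's quasi-likelihood test over 11543 genes, with the run as a block and Benjamini-Hochberg adjustment over all of them, and p-values compare libraries of different sorts. A difference is given as a log2 fold change with its standard error (SE), and a gene is called at an adjusted p-value under 0.05.

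The first question was how the Sox13+ and Il2rb+ Trdc gates differ from resting DN3 cells. The other Trdc gate was not part of this comparison. It held 6.02, 11.7 and 38.7 CPM of Gimap8 and 104, 161 and 396 of Gimap6 in the 3 runs. Between the Sox13+ and Il2rb+ Trdc gates as 1 group and resting DN3 cells, 7 of the 8 members rose and 0 fell, where 12.4% of all tested genes rose and 15.1% fell. The median of the members was 2.16, against -0.08 over all genes tested. Gimap8 rose most, by 3.79 (SE 0.31, adjusted p = 1.78e-10, edgeR), or 13.8-fold. Gimap4 rose 12.1-fold (log2 3.59, SE 0.35, adjusted p = 4.12e-09), Gimap3 5.31-fold (2.41, SE 0.43, adjusted p = 8.25e-05), Gimap6 4.74-fold and Gimap5 4.21-fold. Gimap7 rose by 1.88 (SE 0.42), but its difference was 0.85 (adjusted p = 0.384) without the third run. Gimap9 rose only 1.40-fold (log2 0.49, SE 0.14, adjusted p = 0.00687), and was at 0.32 (adjusted p = 0.213) without the second run. Both also missed the threshold with each UMI minimum of the gates raised by 1 (adjusted p = 0.105 and 0.100), where the Il2rb+ gate held 29 cells of the third run alone. Gimap1 was at 0.19 (SE 0.12, adjusted p = 0.271), and passed the test at 0.33 (adjusted p = 0.0238) without the first run. Within runs, the Sox13+ Trdc gate was above resting DN3 for Gimap4, Gimap5, Gimap6, Gimap8 and Gimap9 in each of the 3 libraries, with counting intervals of the ratio that left out 1. For Gimap3 this held only in the third run (2.85-fold), and the ratio was 1.41 in the second. The Il2rb+ Trdc gate was above resting DN3 for Gimap3 in each library by the same measure. The B cell list (Cd74, Igkc, Iglc2, H2-Aa, Ly6d and Pax5) was at 2273, 6577 and 1897 CPM in resting DN3 cells and at 137 to 582 in these Trdc gates. Of its 6 markers, 2, 1 and 0 were at 0 in the resting DN3 sums and 1 to 5 in the Trdc sums. The list also stood at 955 to 1323 CPM in DN2a and DN2b cells. It is not a list of B cells alone, since the authors used surface Ly-6d to divide DN2 cells. The part of the list in the result was not tested.

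The second question was whether the Trdc cells differ among themselves. Gimap3 alone passed the test between Il2rb+ and Sox13+ Trdc cells, with 1 of 8 members higher and 0 lower, where 1.44% of all genes were higher and 1.73% lower. It was 6.48-fold higher in the Il2rb+ cells (log2 2.70, SE 0.49, adjusted p = 0.000991, edgeR). Leaving out each run gave 2.56 to 3.03, and the test was passed each time. Within runs, the ratio was 4.64 in the second and 6.85 in the third run. In the first run, 7 UMIs of the Il2rb+ gate stood against 0 of the Sox13+ gate. Gimap5 was at 0.87 (SE 0.26, adjusted p = 0.0673) and Gimap4 at 0.98 (SE 0.36, adjusted p = 0.166). Both passed the test without the filter (adjusted p = 0.00259 and 0.000247), and Gimap4 with gates on thinned cells (adjusted p = 0.000311). Gimap6 was at 0.06 (SE 0.26), Gimap8 at -0.01 (SE 0.30) and Gimap9 at -0.09 (SE 0.19). The NK receptor and effector genes moved in the same direction, as given above, and their part in this result was not tested.

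The Trac gate was then set against the Il2rb+ Trdc gate. Gimap4 and Gimap3 were higher in Trac cells, so that 2 of 8 members were higher and 0 lower, against 4.08% and 3.7% of all genes. Gimap4 was 2.36-fold higher (log2 1.24, SE 0.33, adjusted p = 0.0154, edgeR), and Gimap3 2.24-fold (1.16, SE 0.34, adjusted p = 0.0284). Without the second run both missed the threshold, at 0.79 (adjusted p = 0.468) and 0.84 (adjusted p = 0.398), respectively, and without the third Gimap4 did, at 1.17 (adjusted p = 0.0600). Both also missed it with DESeq2's Wald test (0.75 and 0.80, adjusted p = 0.467 and 0.543). With each UMI minimum of the gates raised by 1, they were at 1.14 and 0.95. The Il2rb+ Trdc gate then held 29 cells of the third run alone, so that no test result is given for this setting. Gimap1 was at 0.49 (SE 0.16, adjusted p = 0.0639), and passed the test in 4 of 11 alternatives, without the filter (0.64, adjusted p = 0.00693), at 5% mitochondrial counts (0.60, adjusted p = 0.0204), with doublets removed (0.58, adjusted p = 0.0393) and with gates on thinned cells (0.80, adjusted p = 0.0209). Gimap5, Gimap6 and Gimap9 were at -0.09, -0.03 and 0.02, with SEs of 0.24, 0.27 and 0.18. Gimap7 was at -0.99 (SE 0.47, adjusted p = 0.227) and Gimap8 at 0.25 (SE 0.29). Within runs, Gimap4 (2.99 and 2.27-fold) and Gimap3 (2.90 and 1.77-fold) were higher in Trac cells of both libraries, with counting intervals that left out 1. By that measure Gimap5 (0.73), Gimap6 (0.75) and Gimap7 (0.29) were lower in the third run and Gimap9 (0.68) in the second. Their intervals held 1 in the other run, as did those of Gimap1 (1.21 and 1.08) and Gimap8 in both.

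Among the progenitor, DN2 and resting DN3 gates, few members changed. From progenitors to DN2a cells, where Il2ra comes on, Gimap6 was the member that differed. Progenitors held 114 and 200 CPM of it in the second and the third run, and DN2a cells 63.8 and 70.8. It was 2.26-fold higher in progenitors (log2 1.18, SE 0.29, adjusted p = 0.00693, edgeR), so that 1 of 8 members was higher and 0 lower, against 5.1% and 3.51% of all genes. Each of the 2 libraries was needed, since the value was 1.41 (adjusted p = 0.0811) without the second and 0.84 (adjusted p = 0.160) without the third run. Gimap1 was at -0.48 (SE 0.17, adjusted p = 0.0781), and at -0.58 (adjusted p = 0.0292) without the filter. The myeloid markers that the progenitor gate also held were at 299 and 323 CPM in DN2a cells, and their part in the result was not tested.

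From DN2b to resting DN3 cells, 1 of 8 members was higher and 0 lower, where 12.4% of all genes were higher and 10% lower. That member was Gimap4, at 1.27 (SE 0.46, adjusted p = 0.0472, edgeR), and Gimap3 was at 1.39 (SE 0.52, adjusted p = 0.0522), or 1.31 (adjusted p = 0.000516) without the filter. The call rested on the second run, a sort for DN1 and DN2 cells, where Gimap4 went from 6.54 to 22.2 CPM. Without that run, it was at 0.92 (adjusted p = 0.358). It was also lost when cells with high doublet scores were removed (0.57, adjusted p = 0.585) and when gates were set on thinned cells (0.19, adjusted p = 0.985), and it missed the threshold with DESeq2 size factors, DESeq2's Wald test and raised minimums (adjusted p = 0.0551, 0.0506 and 0.174). In the same resting DN3 cells, Trac itself was at 44.5 CPM and Ccl5 at 65.7, which are 2.51% and 9.18% of their levels in the Trac gate. Gimap4 stood at 4.62% and Gimap3 at 5.29% of theirs. In the DN2b cells of that run, the shares were 1.31% for Trac, 3.47% for Ccl5, 1.36% for Gimap4 and 2.26% for Gimap3. Gimap3 and Gimap4 stood between Trac and Ccl5 in both gates, and below Nkg7, another gene of the effector list, which was at 17.3% in resting DN3 and 21.8% in DN2b cells. The Trac gate selects cells by Trac itself, which raises its level there, so that its share cannot serve as a measure for the other genes. The Trac cells made 19.8% of the second run, 9.44% of the third and 0.199% of the first, and whether free RNA was the source of these low counts was not tested. Gimap1 and Gimap9 stood at 59.3% and 70.4% of their Trac level in the same cells. The median DN2b cell held 6507, 8898 and 15319 UMIs in the 3 runs and the median resting DN3 cell 3323, 4640 and 7144.5. A lack of Kit and Cpa3 UMIs in the shallower gate need not mean their loss.

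**Figure D2:**
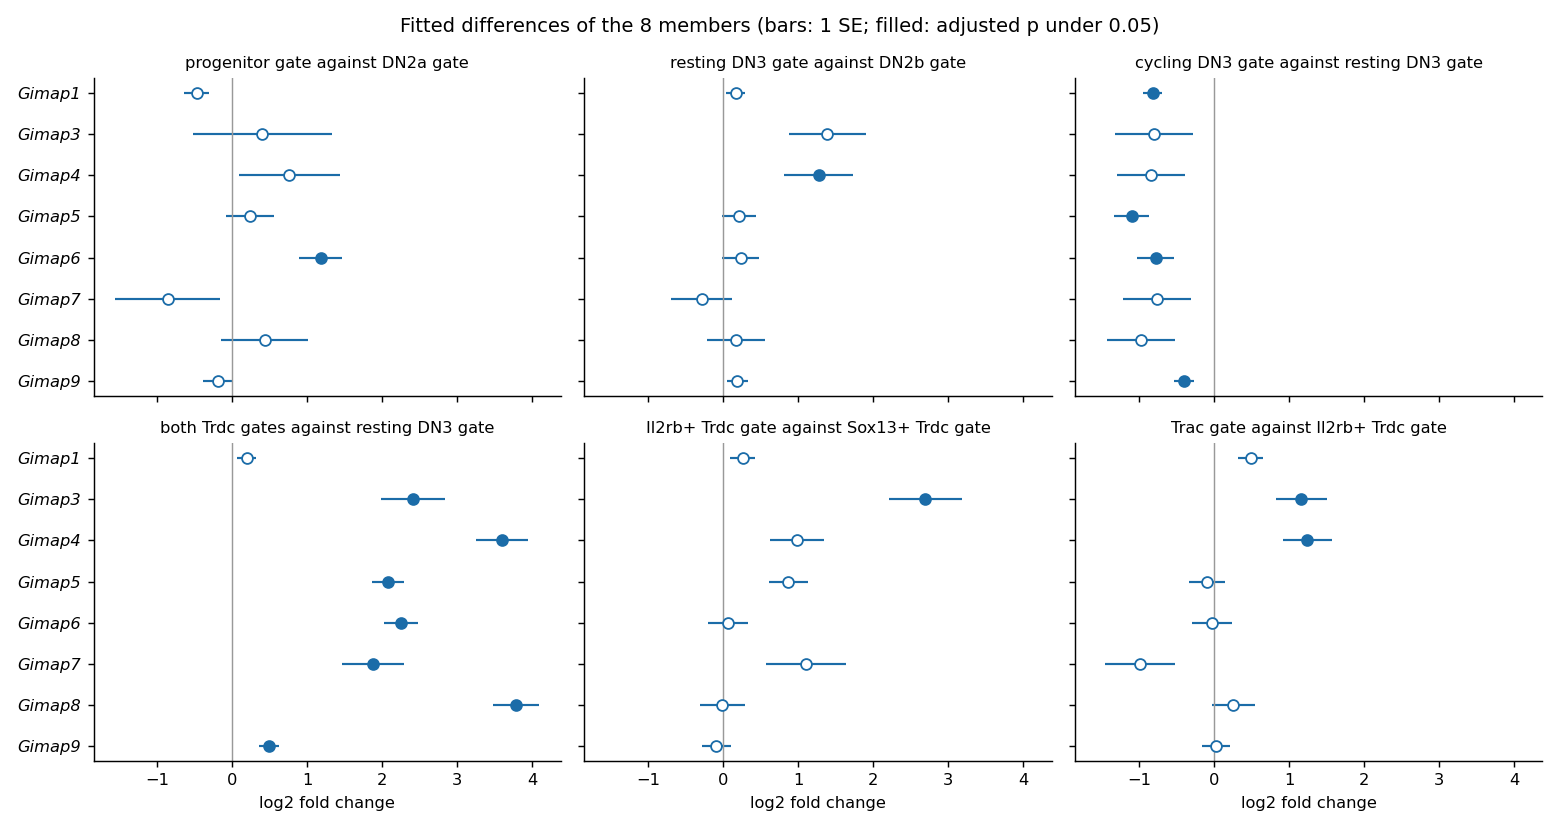
Fitted log2 fold change (x axis) of the 8 members (y axis) in the 6 comparisons. Points are edgeR estimates with bars of 1 SE, filled where the adjusted p is under 0.05. The panel of both Trdc gates against resting DN3 has 7 filled points to the right of 0, and the panel of cycling against resting DN3 has 4 to the left.

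Levels were lower in the cycling DN3 gate. In cycling DN3 cells, 4 of 8 members fell against resting ones and 0 rose, where 19.4% of all genes fell and 13.5% rose. The median of the members was -0.81, against -0.14 over all genes tested. Gimap1 fell by 0.82 on the log2 scale (SE 0.13, adjusted p = 1.25e-05, edgeR), from 177, 172 and 156 CPM to 82.0, 96.1 and 104. Gimap5 fell by 1.10 (SE 0.24, adjusted p = 0.000701) and Gimap6 by 0.78 (SE 0.25, adjusted p = 0.0150). Gimap9 fell by 0.41 (SE 0.13, adjusted p = 0.0185), and was at -0.39 (adjusted p = 0.121) without the second and -0.29 (adjusted p = 0.259) without the third run. Gimap6 missed the threshold without the second run, at -0.80 (adjusted p = 0.116). With each UMI minimum of the gates raised by 1, Gimap6 was at -0.70 (adjusted p = 0.0717) and Gimap9 at -0.35 (adjusted p = 0.119), and Gimap9 was at -0.32 (adjusted p = 0.134) without the filter on low counts. Gimap3, Gimap4, Gimap7 and Gimap8 were at -0.80, -0.85, -0.76 and -0.98 with SEs of 0.45 to 0.52. Gimap4 passed the test without the third run (-1.57, adjusted p = 0.0181), with raised minimums (-1.42, adjusted p = 0.0302) and without the filter (-0.76, adjusted p = 0.0205), and Gimap8 with doublets removed (-1.64, adjusted p = 0.0468). The median cycling cell held 11705, 10016.5 and 15103 UMIs and the median resting cell 3323, 4640 and 7144.5, so that a lower CPM in a cycling cell and more RNA of other genes cannot be told apart. The DN3 markers of the gate check were at 2395, 4644 and 3350 CPM in cycling cells and at 4684, 5213 and 4482 in resting ones. The 2 gates may thus differ in stage as well as in division, and the part of stage in the result was not tested. With gates set on cells thinned to 2000 UMIs, only 25 cycling cells of 1 run were left and 0 of 8 members passed the test in edgeR, with Gimap1 at -0.20 (adjusted p = 0.802). The DN4 gate of the first run, which held 750 cells with a median of 9492.5 UMIs, had the lowest Gimap1 of all sums and 0.256 CPM of Gimap3.

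How many members a cell carried at once was read after each cell had been thinned to 2000 UMIs. Trac cells held a mean of 2.36 and 2.40 members in the second and the third run, and Il2rb+ Trdc cells 2.05, 1.58 and 2.32 in the 3 runs. Sox13+ Trdc cells held 1.27, 1.51 and 1.62, B cells 1.61, resting DN3 cells 0.637, 0.674 and 0.697, and DN4 cells of the first run 0.331. Without thinning, at median depths of 2883.5 and 5844 UMIs, Trac cells held 3.03 and 4.36 members, and resting DN3 cells 1.14, 1.39 and 1.82. In the Trac gate, 47.0% of cells of the second run (95% exact binomial interval 44.7 to 49.4) and 48.1% of the third (44.4 to 51.8) held 3 or more members, against 1.27%, 2.01% and 2.12% of resting DN3 cells. At least 5 members were seen in 8.4% and 9.87% of Trac cells, in 0 of 474 resting DN3 cells of the first run (exact upper limit 0.775%), in 0 of 399 of the second (0.92%) and in 1 of 661 of the third. Gimap4 by itself was seen in 55.4% and 53.2% of Trac cells, or 65.0% and 78.3% without thinning, and in 0.211%, 2.76% and 1.06% of resting DN3 cells, or 1.05%, 6.52% and 3.45% without it. No cell held all 8, and the most were 7. No cell type that surely lacks the family was gated, so that the share by free RNA has no direct measure, and the lowest gate was DN4 of the first run with 28.5% of cells holding any member.

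**Figure D3:**
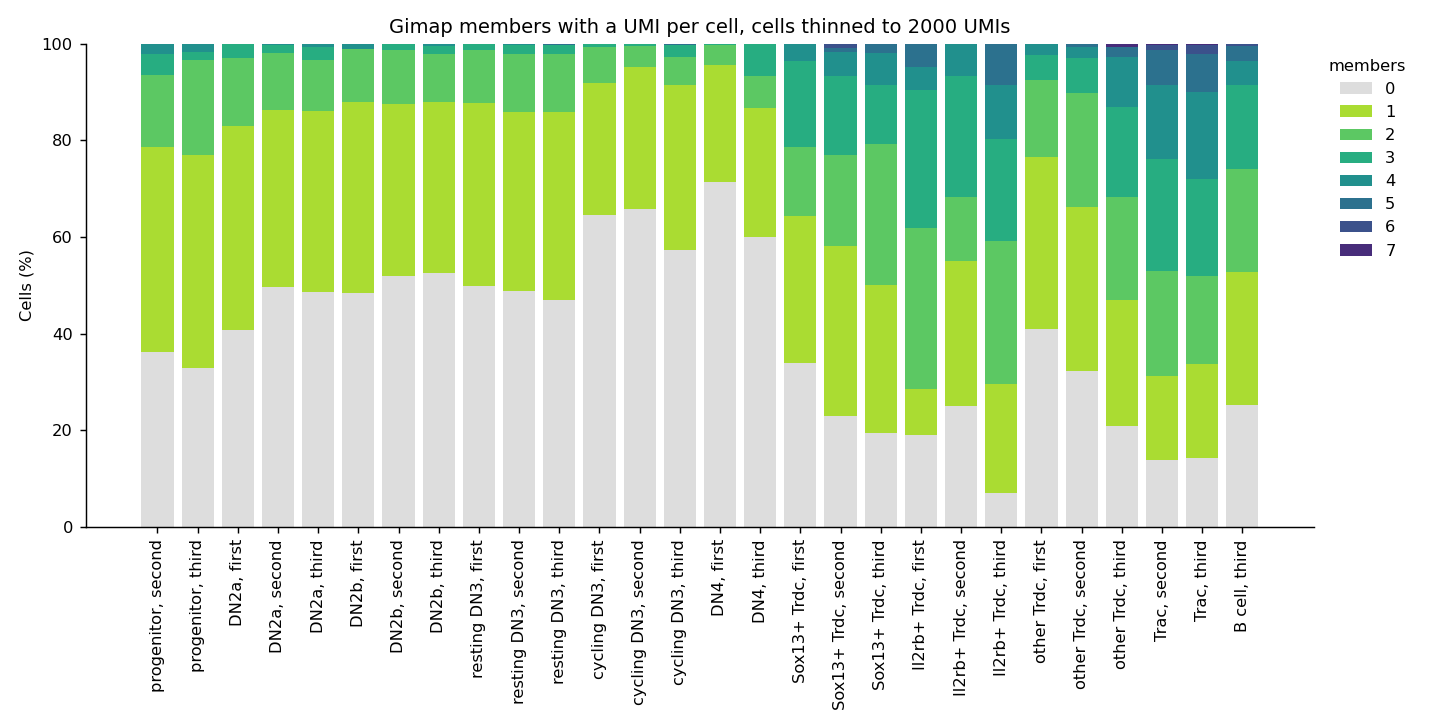
Share of cells (y axis, percent) with UMIs of 0 to 7 members in each gate and run (x axis), after thinning to 2000 UMIs per cell. The Trac bars have 13.7% and 14.2% of cells with no member, while resting DN3 bars have 46.9% to 49.8%.

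In the Trac gate, the members were often detected in the same cells. For each pair with at least 20 cells on both sides, the share of cells holding the one was compared between cells with and without the other. In the second run, the share was higher with the partner for 26 of 28 pairs, and the exact intervals did not overlap for 14 of them. In the third run it was higher for 22 of 23 pairs, with 12 apart. Gimap3, for example, was seen in 47.1% of second-run Trac cells with Gimap4 (95% interval 43.9 to 50.3) and in 26.2% of those without (23.1 to 29.4), and in the third run in 49.3% against 25.6%. Gimap4 was seen in 69.4% of second-run cells with Gimap9 and in 52.3% without. B cells gave 24 of 28 pairs higher and 8 apart, with Gimap3 in 31.2% of cells with Gimap4 and 6.55% of those without. In resting DN3 cells, by contrast, the partner went with a higher share in 6 of 14, 9 of 14 and 10 of 14 pairs of the 3 runs, and the intervals were apart for 0. The number of pairs whose intervals are apart follows the number of cells and the level of the members, and no test of the gates against each other was made.

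Within the Trdc and Trac gates, the members were read against Ccl5, a chemokine of effector cells, Klf2, a factor of mature cells on their way out of the thymus, and Cd24a, which immature thymocytes carry. These genes were chosen after the levels had been seen, and cells were parted by whether they held a UMI of them after thinning to 2000 UMIs. Trac cells with Ccl5 had 349 CPM of Gimap3 in the second run (95% Poisson interval 316 to 385) against 211 (198 to 225) without, and 390 (344 to 440) against 220 (205 to 234) in the third. Gimap4 was at 577 against 458 CPM and at 562 against 409. Gimap5 (204 against 144) and Gimap8 (62.0 against 36.7) were also higher with Ccl5 in the second run, with intervals apart. Gimap1 (301 against 232), Gimap6 (400 against 317) and Gimap7 (27.0 against 10.7) were so in the third run. The intervals of these members overlapped in the other run, and those of Gimap9 in both, at 87.3 against 95.8 and 118 against 111. The median Trac cell with and without Ccl5 held 2768.5 and 2932.5 UMIs in the second and 5300 and 6016 in the third run. Among all Trdc cells, those with Klf2 had 161 CPM of Gimap4 in the first run (121 to 209) against 23.6 (17.2 to 31.7) without, 121 against 59.0 in the second, and 148 against 123 in the third, where the intervals overlapped. Gimap3 was at 43.0 against 3.76, 60.6 against 20.6 and 92.5 against 44.6 CPM, with the intervals apart in each run. Most of the family moved with Klf2 in the first run. Gimap1 was at 261 against 159 CPM there, Gimap5 at 201 against 50.5, and Gimap6 at 336 against 99.3. Gimap8 was at 37.3 against 4.83 and Gimap9 at 166 against 81.6, all with intervals apart. Gimap7 was at 2.87 against 6.98, with overlapping intervals. In the second run, Gimap1 (261 against 176), Gimap6 (288 against 143) and Gimap9 (117 against 73.4) had intervals apart. Those of Gimap5, Gimap7 and Gimap8 overlapped there. In the third run, of these members only Gimap6 (457 against 392) had intervals apart. Trdc cells without Cd24a had more Gimap4 than those with it in all runs, at 64.6 against 27.1, 137 against 25.9 and 142 against 95.1 CPM. For Gimap3 it was 12.2 against 7.88, with overlapping intervals, 59.3 against 10.1 and 71.2 against 29.9. Gimap6 was at 167 against 109, 244 against 142 and 435 against 345, with the intervals apart, while those of Gimap9 overlapped in each run. Ccl5 parted the Trdc cells by Gimap3, at 124 against 29.0 and 236 against 55.3 CPM in the second and the third run, and by Gimap4 at 183 against 74.0 in the second run, while in the third Gimap4 was at 133 against 132. Gimap6 was at 315 against 185 and 589 against 409 in these runs, with the intervals apart, while those of Gimap9 overlapped. In Trac cells, Klf2 and Cd24a went with smaller differences. Gimap3 was at 268 with Klf2 against 216 without in the second run, with the intervals apart, and at 267 against 237 in the third, where they overlapped. Gimap4 was at 494 against 472 and 434 against 429, and by Cd24a at 465 with against 483 without and 344 against 432, with overlapping intervals throughout. Gimap3 was at 195 against 242 and 198 against 245 by Cd24a, where the intervals overlapped as well.

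Over the 28 sums, the levels of the members on the log2(CPM + 1) scale went together to different degrees. These correlations are descriptions, since the sums share 3 libraries and their depths. Gimap6 and Gimap8 were the closest pair (Pearson r = 0.96), followed by Gimap4 and Gimap8 (0.92). Gimap3 and Gimap9 were the farthest apart (0.41), and the closest member to Gimap9 was Gimap8 (0.70). Among 7808 other genes, the summed family was most like Ltb, the lymphotoxin β chain (r = 0.94), followed by Ptprcap, which binds CD45 (0.93), Slc50a1, a sugar transporter (0.93), and Rhof (0.93). Lbh, B4galnt1, the ganglioside enzyme, Laptm5, a lysosomal protein of blood cells, Il2rg, the common cytokine receptor γ chain, Pdlim2 and Sp100 followed, at 0.92. Ltb ran from 31.0 to 914 CPM over the sums. By member, Gimap8 was closest to Sp100 (0.97), Gimap6 to Laptm5 (0.94), Gimap5 to B4galnt1 (0.93), Gimap4 to Btg1 (0.92) and Gimap3 to Ctsw, a protease of cytotoxic cells (0.91). Gimap1 (2310001H17Rik, 0.86), Gimap9 (Dnajc3, 0.85) and Gimap7 (Atp2a3, 0.83) had looser partners.

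Genes with related roles were read from the same fits. Of the lists, maturation and egress had the highest median between both Trdc gates and resting DN3 cells, where 10 of its 14 genes rose and 1 fell, with a median of 2.19. The counts of all lists here are read beside the 12.4% of all genes that rose and the 15.1% that fell. S1pr1, the receptor that leads T cells out of the thymus, rose by 5.51 (SE 0.71), Ccr7 by 4.58 (SE 0.65) and Itgb7 by 3.64 (SE 0.45), while Ly6e fell by 0.45 (SE 0.11). Of the 11 tested immunity-related and guanylate-binding GTPases, interferon-inducible GTPases of other families, 0 rose and 5 fell, with a median of -0.88. Gbp6 fell by 2.35 (SE 0.22), Iigp1 by 2.03 (SE 0.52) and Gbp4 by 1.44 (SE 0.19), and since these Gbp genes are close paralogs, reads could be split among them. The other lists were mixed. IL-7 and IL-15 signalling had 3 of 8 higher (Jak3 1.06, Jak1 0.77 and Il2rg 0.75) and 1 lower (Stat5a, -0.87). Among the 9 survival genes Bcl2a1b rose by 1.89 (SE 0.57), with near-identical copies that share its reads, and Bak1 fell by 0.48 (SE 0.16). Of the 9 GABARAP and LC3 genes, Gabarapl2, a partner of Gimap6, rose by 0.54 (SE 0.12) and Gabarapl1 fell by 0.96 (SE 0.30).

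In cycling against resting DN3 cells, the counts below are read beside the 19.4% of all genes that fell and the 13.5% that rose. The count that fell was 8 of 11 for the immunity-related and guanylate-binding GTPases (median -0.92), 6 of 9 for GABARAP and LC3 genes (-0.50), 5 of 8 for IL-7 and IL-15 signalling (-0.56), 3 of 9 for survival (-0.37) and 1 of 14 for maturation and egress (-0.42), while Bid of the survival list rose by 0.52 (SE 0.20). Cish, the STAT5 target that curbs cytokine signals, fell by 1.77 (SE 0.35), Bcl2 by 1.12 (SE 0.23) and Map1lc3a by 0.84 (SE 0.18). In Il2rb+ against Sox13+ Trdc cells, maturation and egress had 2 higher (Ly6c2 3.95, SE 0.64, and Ms4a4b 2.08, SE 0.43), survival 0 higher and 1 lower (Bcl2l11, -1.42, SE 0.37), and the lists of IL-7 and IL-15 signalling, GABARAP and LC3 and the other GTPases 0 and 0. The shares of all genes there were 1.44% higher and 1.73% lower. In Trac against Il2rb+ Trdc cells, S1pr1 was lower at -2.52 (SE 0.56) and Tcf7, a T cell transcription factor, at -1.58 (SE 0.20), so that Gimap3 and Gimap4 were higher where these genes were lower. Ly6c2 was higher at 2.40 (SE 0.39), with close paralogs that can share its reads, and Ly6e at 0.95 (SE 0.14). IL-7 and IL-15 signalling had 2 higher (Il7r 1.76, SE 0.40, and Socs1 1.03, SE 0.29) and 1 lower, the immunity-related and guanylate-binding GTPases 2 higher, survival 1 and GABARAP and LC3 1, with 0 lower in each. In that comparison, 4.08% of all genes were higher and 3.7% lower. In progenitors against DN2a cells, 5.1% of all genes were higher and 3.51% lower. The counts higher and lower were 3 and 1 of 9 for survival and 0 and 3 of 8 for IL-7 and IL-15 signalling. They were 1 and 0 of 9 for GABARAP and LC3, and 0 and 4 of 11 for the other GTPases. From DN2b to resting DN3 cells, they were 2 and 0, 1 and 0, 2 and 0, and 4 and 0 in the same order. There 12.4% of all genes were higher and 10% lower, so that counts of 1 or 2 were not read as a result about a list. Counts of maturation and egress in these comparisons are not reported here.

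The other genes in and around the cluster took another course in the Trdc comparison, but fell in cycling DN3 cells as members did. Of 32 annotated genes between its ends or within 200 kb of them, 18 were listed in all runs and 8 had enough counts to be tested. Between both Trdc gates and resting DN3 cells, 0 of the 8 rose and 4 fell, with a median of -0.64, where 12.4% of all genes rose and 15.1% fell. Gm5111, a noncoding transcript on the side of Gimap8, fell by 3.70 (SE 0.33, adjusted p = 7.87e-10, edgeR), Repin1 by 2.38 (SE 0.34) and Tmem176b by 0.89 (SE 0.28). In cycling against resting DN3 cells, 6 of the 8 fell and 0 rose, where 4 of 8 members fell and 0 rose. Of all genes, 19.4% fell and 13.5% rose there. In progenitors against DN2a cells 2 were higher and 1 lower, against 5.1% and 3.51% of all genes. From DN2b to resting DN3 cells 2 were higher and 0 lower, against 12.4% and 10%, and in the other comparisons 0 passed the test. Within the cluster, position and change had no simple order. Gimap9 and Gimap1, the members that changed least between both Trdc gates and resting DN3 cells, lie 28.9 and 91.8 kb from the start of Gimap8, each between members that rose by 1.88 or more. The plot along the cluster shows these values.

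**Figure D4:**
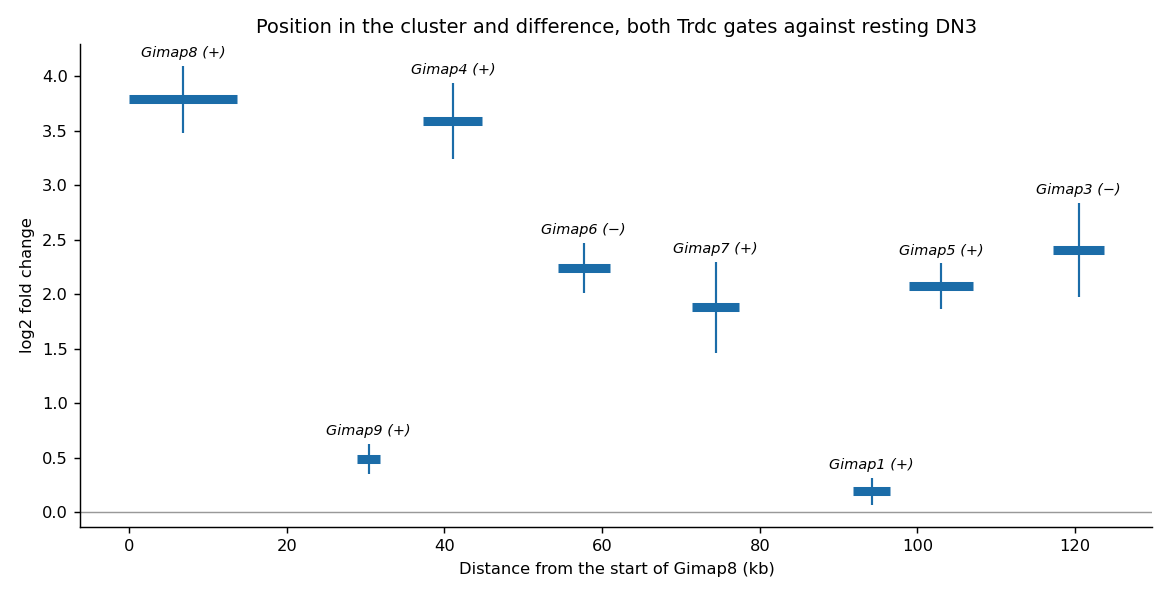
Distance from the start of Gimap8 (x axis, kb) and fitted log2 fold change of both Trdc gates against resting DN3 (y axis). Thick lines span each gene, thin bars are 1 SE, and the sign gives the strand. Gimap9 (0.49) and Gimap1 (0.19) lie low between higher neighbours.

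The annotation of the cluster differed between the files. The first and second runs listed Gm28053, a read-through gene on the same strand that covers Gimap7, Gimap1 and Gimap5, with 1 and 4 UMIs in all, and the third run did not list it. The third run listed Gimap1os, on the strand opposite to Gimap1, at 10.6 CPM against 152 for Gimap1 over all cells of that library. No stretch of 90 bases in the last 500 of the longest coding transcript of a member was found in another member, so that these ends can be told apart. Gm28053 was not part of this search. Whether it took reads from Gimap7, Gimap1 and Gimap5 in the first and second runs was not tested.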

How the data were processed

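Single-cell 3′ RNA libraries of sorted mouse thymocytes were measured with the 10x Chromium platform in 3 runs. The authors deposited 1 filtered matrix of raw UMI counts per run, made with Cell Ranger against mm10, and the header of the third gives version 4.0.0 (versions of the other files are not given in the sources used here). The submitters' processing notes also name R 3.6.3 and Seurat 2.3. The runs held 39947415, 52797915 and 98533329 UMIs.

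A cell was kept if it had between 500 and 5000 genes and mitochondrial genes made 7% of its counts or less, and was put into the first gate that applied. The gates for B cells and Trdc or Trac cells asked for 3 or more UMIs of their genes, with Trdc at 1000 CPM or Trac at 500 CPM of the cell or more, at most 1 UMI of Rag1, Rag2 and Ptcra, and no Kit or Cpa3. The other gates used minimums of 1 or 2 UMIs. Doublets were kept, and Scrublet in scanpy 1.11.5 (Python 3.11.15) served to remove the highest scores as an alternative. Counts were summed per gate and run where 20 or more cells were found. The 28 sums were fitted in 1 model with gate and run as terms by edgeR 4.0.16 (R 4.3.3), with TMM normalisation, filterByExpr, the quasi-likelihood test and Benjamini-Hochberg adjustment over 11543 genes. A fit has 15 residual degrees of freedom among sums that come from 3 libraries, so that p-values measure the spread between gates and libraries and not between mice.

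The run was used as a block because all sums of a run are 1 library. Deviations of sums of 1 run from their gate means correlated at 0.57 in the median and at 0.21 or more in all 63 pairs, and those of different runs at -0.38 in the median. Levels are CPM of the sum with exact Poisson intervals, and shares of cells have exact binomial intervals at 95%. These cover counting error only. Cells were thinned to 2000 UMIs for shares, and no gate lost more than 5 cells in a run by this. The steps were tested on simulated data.

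The members and lists were chosen with earlier results of these data known. Named genes were the 8 members, the 10 genes most like the summed family among genes of mean CPM 10 or more, and from each list at most 3 genes in each direction with the largest called change, while Ccl5, Klf2 and Cd24a were added after values were seen. Alternatives were DESeq2 1.42.0 size factors and its Wald test, no filter, no run term, leaving out each run, 5% mitochondrial counts, doublet removal, gates on thinned cells, raised gate minimums, other thinning depths and Spearman correlation. Promoters were taken from RefSeq (GRCm38.p6) by symbol, which matched all 8 members. Some genes of the lists, and the counts and sums that rest on them, are not reported here.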

Additional observations from a re-analysis of the deposited data

How the results depend on the processing

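Members that passed the test kept their direction under all alternatives that gave a value, while differences that did not pass it could change sign, as those of Gimap7 and Gimap8 between Il2rb+ and Sox13+ Trdc cells did. Without the run as a block, the members called fell to 0 of 8 in Il2rb+ against Sox13+ Trdc cells, 4 in Trdc against resting DN3 cells, 0 in Trac against Il2rb+ Trdc cells, 0 in progenitors against DN2a cells, 0 in resting DN3 against DN2b cells and 2 in cycling against resting DN3 cells, where the genes called fell from 366, 3179, 898, 994, 2585 and 3792 to 26, 1065, 91, 168, 274 and 341, respectively. Leaving out the second or the third run lowered the genes called to 91 and 101, 2048 and 1270, 250 and 312, 434 and 255, 1136 and 1029, and 2139 and 2422 in the same order, raised gate minimums to 179, 1885, 301, 319 and 1253 in the comparisons other than that of cycling cells, and gates on thinned cells to 409 and 482 in the last ones. Leaving out each run gave 0 to 2 members in Trac against Il2rb+ Trdc cells, 0 to 1 in progenitors against DN2a cells and in resting DN3 against DN2b cells, and 2 to 4 in cycling against resting DN3 cells. Without a filter, 3 members were called in Il2rb+ against Sox13+ Trdc cells and 2 in each of progenitors against DN2a and resting DN3 against DN2b cells. With gates on thinned cells the counts were 2 in Il2rb+ against Sox13+ Trdc cells, 0 in resting DN3 against DN2b cells, with 31 and 21 DN2b cells, and 0 in cycling against resting DN3 cells, and progenitors gave no value. DESeq2's Wald test called 0 in Trac against Il2rb+ Trdc cells. In resting DN3 against DN2b cells, the Wald test, raised minimums, DESeq2 size factors and doublet removal each called 0. Raised minimums left the Il2rb+ Trdc and progenitor gates with 29 and 28 cells, all of the third run, so that comparisons with these gates rest on 1 library there. Thinning to 1000 and 3000 UMIs moved the share of cells with 3 or more members to 19.6% and 43.5% (Trac, run 2), 18.6% and 65.0% (Trac, run 3) and 0.601% and 3.63% (resting DN3, run 3), and at 3000 UMIs only 763 Trac cells of the second run remained. By Spearman correlation, 5 of the 10 genes most like the family were shared. Of 224 levels of a member in a gate and run, 3 left their counting interval at 5% mitochondrial counts and 33 with doublet removal. With raised minimums, 37 of 184 did. Doublet removal left 210 of the 345 cycling DN3 cells of the first run. The DESeq2 size factors left 47 of 48 values on their side of the threshold, 5% mitochondrial counts 47, doublet removal 45, the Wald test 45, no filter 41, raised minimums 40 and no block 38. Depth limits Gimap3, Gimap7 and Gimap8 in the gates from progenitors to DN4, where sums hold few UMIs, and 21 Il2rb+ Trdc cells in the first run.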
